A study of Mus musculus with 10 samples.

Results

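The 7 long noncoding RNAs described here are *Malat1*, *Neat1*, *Meg3*, *Rian*, *Mirg*, *Miat* and *Snhg11*. They were chosen by name, as RNAs known from the nucleus and from neurons, and each one had a row among the 25232 genes of the deposited table. The libraries came from the spinal cord of female mice at 90 days of age, 5 wild type (WT) and 5 *SOD1 G93A*. The methods name the lumbar region, describe the WT mice as littermates and give both groups a C57BL/6J background. *SOD1 G93A* mice carry a human *SOD1* transgene with a mutation found in familial amyotrophic lateral sclerosis, in a high number of copies and on top of the mouse's own *Sod1* gene, which limits the line as a model of the inherited disease.

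Long noncoding RNAs are transcripts that are not translated into a long protein, and many stay in the nucleus. *Malat1* is known from nuclear speckles, the sites where splicing factors are stored. *Neat1* is the RNA scaffold of paraspeckles, nuclear bodies that hold proteins such as SFPQ, NONO and TDP-43. *Meg3*, *Rian* and *Mirg* lie one after the other in an imprinted domain on chromosome 12, where they are expressed from the maternal copy, and *Rian* and *Mirg* host small RNAs in their introns. *Miat* is a nuclear RNA of neurons that binds splicing factors, and *Snhg11* is a host of small nucleolar RNAs (snoRNAs) that is known from neurons.

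The sequence at the 3′ end of these RNAs is described because the libraries were made from polyadenylated RNA. Its bearing on the levels was not tested. *Malat1* and the long form of *Neat1* are known to end without a conventional poly(A) tail, in a stretch of A encoded in the genome that folds back on U-rich stretches. The tRNA-like mascRNA is cut off behind the end of *Malat1*. For *Malat1*, the 100 bases before the RefSeq start of mascRNA are shown, which is not the end of the annotated gene: the longest GENCODE transcript runs on for 292 bases, through mascRNA, to 5795690. For *Neat1*, the last bases of the longest transcript are shown. The sequences are from the GENCODE M21 transcripts of GRCm38, the build that mm10 denotes, and are written 5′ to 3′ with every run of at least 4 A or 5 T in capitals. The positions are chr19:5795982-5796081 for *Malat1*, chr19:5795924-5795981 for mascRNA and chr19:5824708-5824807 for *Neat1*, all on the minus strand.
Malat1: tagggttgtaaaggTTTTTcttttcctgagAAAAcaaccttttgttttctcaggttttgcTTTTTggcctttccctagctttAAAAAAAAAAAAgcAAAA
mascRNA: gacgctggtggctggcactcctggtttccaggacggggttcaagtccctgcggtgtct
Neat1: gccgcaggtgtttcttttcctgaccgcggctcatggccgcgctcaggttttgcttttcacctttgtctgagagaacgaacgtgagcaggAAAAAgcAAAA

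In the last 40 bases before mascRNA, *Malat1* held a run of 12 A, and the last 40 of *Neat1* held a run of 5 A. Such a run was not particular to this pair, since the last 40 bases of the longest *Rian* transcript held a run of 8 A. Of 19918 transcript ends of genes with a base mean above 0 (the deposited level, explained further on), 21.9% held a run of at least 5 A in that window and 0.959% one at least as long as that of *Malat1*. AATAAA, the usual polyadenylation signal, stood in the last 50 bases of 57.9% of the transcript ends. It was absent from that window of *Neat1* and from the window of *Malat1* before mascRNA, whereas the annotated end of *Malat1* at 5795690 held it, 16 bases before the end. The sequence was searched on the transcript strand only.

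The longest GENCODE transcripts of the other members ended as follows, with AATAAA in capitals. They are shown because they differ in these letters.
Meg3: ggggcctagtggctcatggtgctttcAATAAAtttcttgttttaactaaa
Rian: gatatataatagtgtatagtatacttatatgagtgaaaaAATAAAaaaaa
Mirg: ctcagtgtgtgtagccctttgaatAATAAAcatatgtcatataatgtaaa
Miat: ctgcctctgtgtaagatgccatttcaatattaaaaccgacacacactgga
Snhg11: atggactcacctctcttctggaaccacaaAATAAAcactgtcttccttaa
The signal stood 18 bases before the end of *Meg3*, 5 before that of *Rian*, 20 before that of *Mirg* and 15 before that of *Snhg11*, and these letters were absent from the window of *Miat*. A match describes the letters and is not evidence that the site is used. Only AATAAA was searched, so the absence of these letters does not mean that no other form of the signal is there.

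The level used for every gene was the base mean, which is the authors' mean over all 10 libraries of read counts divided by size factors. It pools WT and *SOD1 G93A* mice, so no value of a single mouse, no spread between mice and no comparison of the genotypes could be given from it. In whole tissue, fewer cells of a type and less RNA per cell cannot be told apart. To compare different genes, the base mean was divided by the length of the gene's exons in kilobases, counting each exon base of any annotated GENCODE transcript once. The base means of all genes summed to 22158933, the average per library of normalized reads counted on the listed genes. A base mean above 0 was found for 20973 genes, with a median of 247. Of these, 20403 had an annotated length and a median base mean per kilobase of 63.4.

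Markers of neurons and glia were all counted, which does not set the spinal cord apart from other neural tissue. All 6 markers of oligodendrocytes lay between 5348 and 319615 on the base mean, all 10 of neurons between 735 and 59050, all 6 of astrocytes between 1944 and 56290 and all 6 of microglia between 111 and 3075. The 4 endothelial markers lay between 472 and 2253, the 4 of Schwann cells of the nerve roots between 21.5 and 1694, the 5 of skeletal muscle between 60.1 and 251, and the 4 of hepatocytes between 2.70 and 216. Of 5 red blood cell markers, 4 globin genes were listed at 0 and *Alas2* had 137. The table listed 0 genes of the mitochondrial genome.

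Together the 7 long noncoding RNAs held 0.600% of the summed base mean. Genes that RefSeq classes as long noncoding RNA held 1.57% in all, so the 7 made up 38.3% of that class. *Meg3* and *Snhg11* alone made up 27.7% of it. The members were very unequal among themselves, as the plot of their base means shows. As counted here, the word abundant held for 5 of the 7, with base means of at least 10064, and not for *Mirg* and *Malat1*. Whether the low *Malat1* value is its level in the tissue was not tested.

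**Figure D1:**
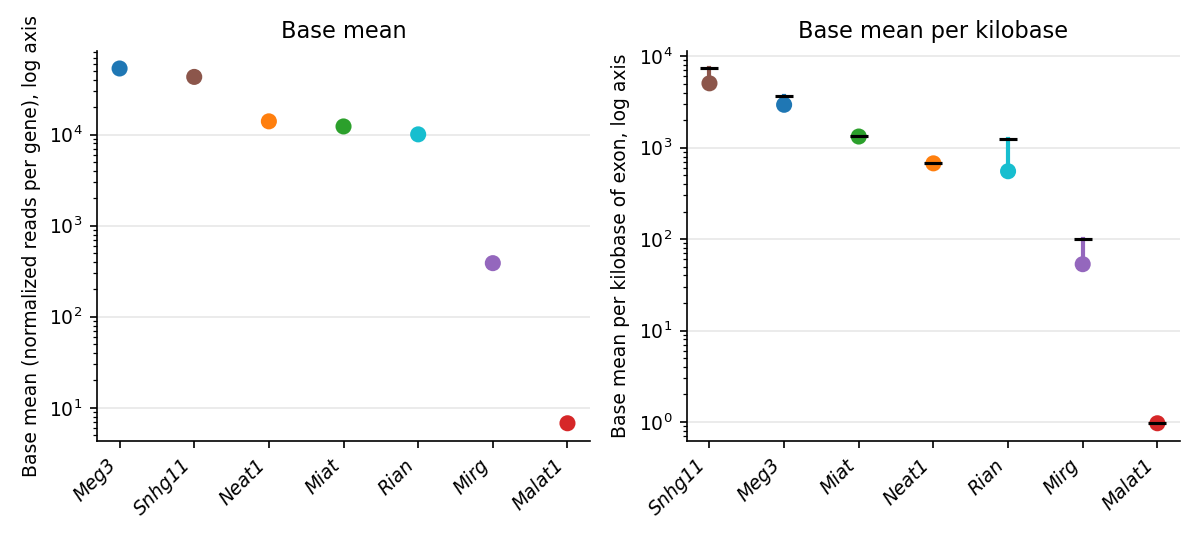
Base mean (left, normalized reads per gene, the authors' mean over 10 libraries) and base mean per kilobase of exon (right) of the 7 long noncoding RNAs, each on a log axis and ordered from high to low. Dots use all annotated exon bases, and black dashes on the right use the longest transcript; *Malat1* is the lowest on both scales, at 6.76 and 0.969.

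*Meg3*, a maternally expressed RNA known as a suppressor of cell growth, had the highest base mean of all long noncoding RNA genes, 53241, and was number 12 among all genes listed. It lies on chromosome 12 of GRCm38 from 109540996 to 109571729 on the plus strand. Over 18089 exon bases its level was 2943 per kilobase, higher than that of 98.9% of protein-coding genes. The base mean of *Meg3* was of the size of those of *Snap25* (59050), a synaptic vesicle fusion protein of neurons, and *Gfap* (56290), the intermediate filament of astrocytes.

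*Snhg11*, on chromosome 2 from 158375713 to 158386474 on the plus strand, had a base mean of 43033 and was number 20 among all genes. Because its exons cover only 8521 bases, it stood first per kilobase among long noncoding RNAs with an annotated length, with 5050. That level exceeded the one of 99.5% of protein-coding genes. RefSeq classes *Snhg11* as long noncoding and GENCODE M21 classes it as protein coding. The neighbouring host gene *Snhg17*, which lies 14190 bases away, had a base mean of 199, and *Ralgapb* on the other side had 3828. Neither of the 2 snoRNA genes that RefSeq places within *Snhg11* was listed in the table.

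*Miat* lies on chromosome 5 from 112213228 to 112228948 on the minus strand and had a base mean of 12295, or 1323 per kilobase. This was the ninth highest level per kilobase among long noncoding RNA genes with an annotated length. It exceeded that of 96.5% of protein-coding genes. The genes on either side were low, with *1700028D13Rik* listed at 0 and the lens crystallin gene *Cryba4* at 12.5. Of the exon bases of *Miat*, 30.4% are shared with other annotated genes. With the same base mean divided by the unshared bases alone, the value was 1902 per kilobase, and reads on shared bases may still be in that base mean.

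*Neat1* lies on chromosome 19 from 5824708 to 5845480 on the minus strand. It had a base mean of 13987, the fourth highest among long noncoding RNA genes. Spread over 20771 exon bases this came to 673 per kilobase, above 91.6% of protein-coding genes. GENCODE annotates 4 transcripts, from 711 to 20771 bases, and which of them is the short form was not examined. A single pooled value per gene does not separate the short form from the long form that builds paraspeckles.

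*Rian*, also known as *Meg8*, lies on chromosome 12 from 109603945 to 109661716 on the plus strand. Its base mean was 10064, and its level per kilobase was 552 over the 18234 exon bases of 20 annotated transcripts. Over the longest single transcript, of 8089 bases, it was 1244.

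*Mirg* lies on chromosome 12 from 109734981 to 109749458 on the plus strand, where it is the host of a cluster of microRNAs. With a base mean of 388 it was number 8953 among all genes. Its level of 53.2 per kilobase lay below the median of all genes (63.4), although above that of long noncoding RNAs (3.58). Over the longest transcript it was 101, above the median of all genes on that length (83.7). *Mirg* was therefore of middle rank and not among the abundant transcripts.

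*Malat1*, as counted here, went against the label of an abundant RNA. It lies on chromosome 19 from 5795690 to 5802672 on the minus strand and had a base mean of 6.76, which amounts to 67.6 normalized reads over all 10 libraries together. In the same table, 999 long noncoding RNA genes had a higher base mean. Over 6983 exon bases the level was 0.969 per kilobase, below that of 1183 long noncoding RNA genes, and only 10.9% of protein-coding genes lay lower.

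The genes on the *Neat1* side of *Malat1* were not low. *Neat1*, whose nearer edge is 22035 bases away on the same strand, had 2068 times its base mean and 695 times its level per kilobase, or 1411 times with the shortest transcripts as lengths. *Frmd8*, beyond *Neat1*, had a base mean of 1881. The mascRNA row was listed at 0.

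Several properties of the *Malat1* row were measured beside its low value. The authors counted uniquely mapped reads, and of the 7116 windows of 100 bases in its annotated transcripts, 4.98% also occurred in a transcript of another gene. A share of 0.0703% occurred in a gene located elsewhere. For *Meg3* 8.96% of windows were shared with another gene, and for *Miat* 18.3%. The windows were compared with GENCODE M21 transcripts only, not with the rest of the genome. The 4 globin genes, known as abundant transcripts of blood, were listed at 0. The part of library preparation, mapping, annotation or counting in the *Malat1* value was not tested.

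Per kilobase the order was *Snhg11*, *Meg3*, *Miat*, *Neat1*, *Rian*, *Mirg* and *Malat1*. *Snhg11* stood 1.72 times above *Meg3*, *Meg3* 2.22 times above *Miat* and *Miat* 1.96 times above *Neat1*. The step from *Neat1* to *Rian* was 1.22 times, and these neighbours changed places when the longest or the shortest transcript gave the length. *Snhg11* and *Meg3* changed places with the shortest transcript, where *Meg3* was 2.02 times higher. The last steps were of another size, with *Rian* 10.4 times above *Mirg* and *Mirg* 54.9 times above *Malat1*. Since a pooled mean has no spread, no step was tested against the variation between mice. On the base mean itself, *Meg3* stood 1.24 times above *Snhg11*, so the leading pair was the reverse of that per kilobase.

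**Figure D2:**
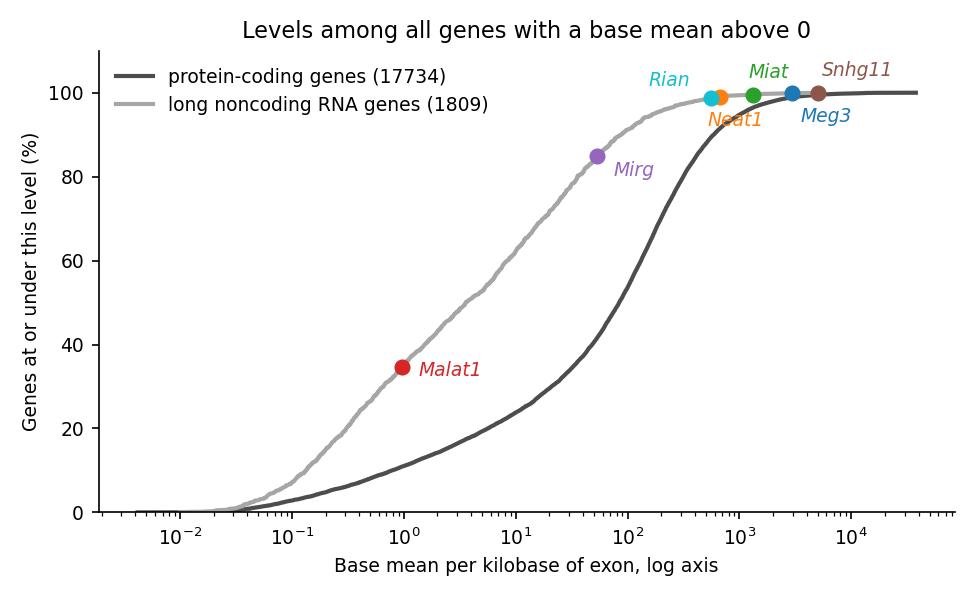
Share of genes at or under each base mean per kilobase of exon (log axis) for 17734 protein-coding genes (dark line) and 1809 long noncoding RNA genes (light line) with a base mean above 0; dots mark the 7 members on the light line. *Snhg11*, *Meg3*, *Miat*, *Neat1* and *Rian* sit at its upper end, *Mirg* lies in its upper part and *Malat1* in its lower part.

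The distribution of levels shows how far the members stood from their class. Long noncoding RNA genes had a median of 3.58 per kilobase, against 84.3 for protein-coding genes. *Snhg11*, *Meg3* and *Miat* were in the top 5% of all genes with a length and a base mean above 0. Of all these genes, 92.5% lay below the level of *Neat1*, 90.5% below that of *Rian*, 47.0% below that of *Mirg* and 13.1% below that of *Malat1*.

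Among long noncoding RNA genes with an annotated length, the 10 with the highest level per kilobase included *Snhg11*, *Meg3* and *Miat*. *A230070E04Rik*, with a base mean of 13275.5 above that of *Miat*, had no matched length and so no place here. *2900097C17Rik*, the mouse *Norad* gene, was second with 4186 per kilobase, and the imprinted *Peg13* was the next after *Meg3*, with 2295. The others were *Fam219aos* (2009), *Gm16537* (1661), *Grin1os* (1396), *Rnf227* (1364, classed as protein coding by GENCODE) and *9130221H12Rik* (1224). Of these, *Fam219aos*, *Gm16537*, *Grin1os* and *9130221H12Rik* are annotated as antisense, and without the strand setting of the counting, their reads cannot be told apart from those of the gene on the opposite strand.

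A wider list of other long noncoding RNAs with known names placed the 7 members in context. Of its 48 names, 45 different genes were listed, with base means from 0.119 (*Six3os1*) to 20574 (*2900097C17Rik*) and a median of 144. Per kilobase the median was 44.7, close to the level of *Mirg*. *Xist*, the RNA that silences one X chromosome in females, had a base mean of 10908 and 608 per kilobase, between *Rian* and *Neat1*. *Malat1* had a higher base mean than 5 of the 45 genes.

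**Figure D3:**
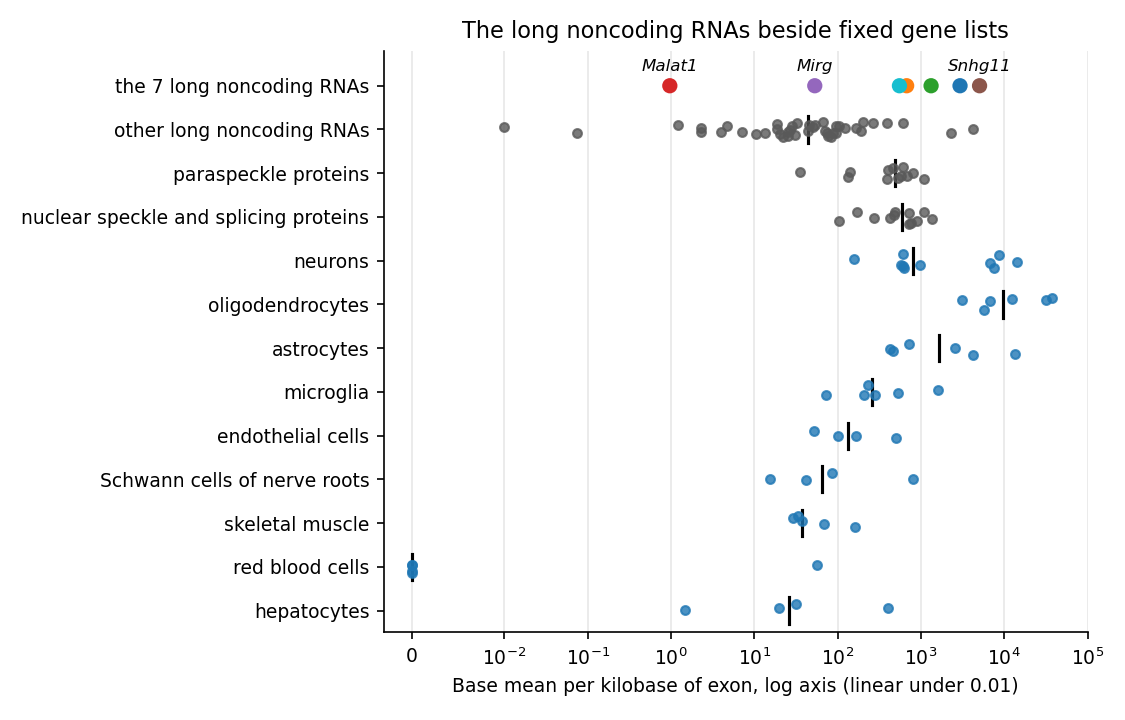
Base mean per kilobase of exon (log axis, linear under 0.01) of the 7 members and of the genes of each list, with black ticks at the list medians; genes without an annotated length are left out. The speckle and paraspeckle protein genes lie around *Rian* and *Neat1*, while *Malat1* lies below every one of them.

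The genes of proteins that share nuclear bodies with *Neat1* and *Malat1* all had higher base means than *Malat1*. All 12 genes of paraspeckle proteins had a base mean above 0, from 113 for *Hnrnpa1* to 6962 for *Hnrnpk*, both RNA-binding proteins. Their median was 491 per kilobase, and 3 of the 12 lay above the *Neat1* level. *Sfpq* and *Nono*, which bind *Neat1* directly, had 575 and 525 per kilobase. *Tardbp*, which encodes TDP-43 and in which mutations cause familial amyotrophic lateral sclerosis, had 616.

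The 12 genes of nuclear speckle and splicing proteins had base means from 562 for *Celf3* to 17514 for *Srrm2* and a median of 599 per kilobase. *Srrm2*, a scaffold of the speckles, was at 1364 per kilobase and *Son*, another scaffold, at 170. Among the splicing factors known to bind *Miat*, *Qk* had 903, *Sf1* 484 and *Celf3* 103 per kilobase, all below the 1323 of *Miat* itself. For *Qk* this order depended on the length, since its base mean was 12865 against 12295 for *Miat*. These values are levels of RNA in the whole tissue and do not tell whether an RNA and a protein were in the same cells.

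*Meg3*, *Rian* and *Mirg* were set beside the other genes of their domain, from *Begain* to *Dio3os* on chromosome 12. The 76 listed genes of this interval had a summed base mean of 69360, of which *Meg3* alone held 76.8% and the 3 long noncoding RNAs together 91.8%. Along the chromosome the base mean of these 3 members fell from 53241 for *Meg3* to 10064 for *Rian* and 388 for *Mirg*. These steps were 5.29 times and then 26.0 times. The fall did not hold for every long noncoding RNA gene, since *6430411K18Rik*, between *Meg3* and *Rian*, had 8.69. Per kilobase the same steps were 5.33 times and 10.4 times, so that *Meg3* was 55.4 times above *Mirg*. With the longest transcript as length they were 2.94 and 12.3 times, and *Meg3* was 36.1 times above *Mirg*. With the shortest they were 3.69 and 31.8 times, and 117 times in all.

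The protein-coding genes of the domain, which are expressed from the paternal copy where they are imprinted, were lower than *Meg3*. *Dlk1*, a Notch-related membrane protein 77659 bases before *Meg3*, had a base mean of 1924. *Rtl1*, a gene derived from a retrotransposon, had 257, and its RefSeq interval on the minus strand overlaps both *Meg3* and *Rian*. Without the strand setting of the counting, its reads on the overlap cannot be told apart from those of *Meg3* and *Rian*. *Dio3*, a thyroid hormone deiodinase at the far end, had 0.656, and its neighbour *Dio3os* had 0.953. *Begain*, at the near end, had 2542.

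**Figure D4:**
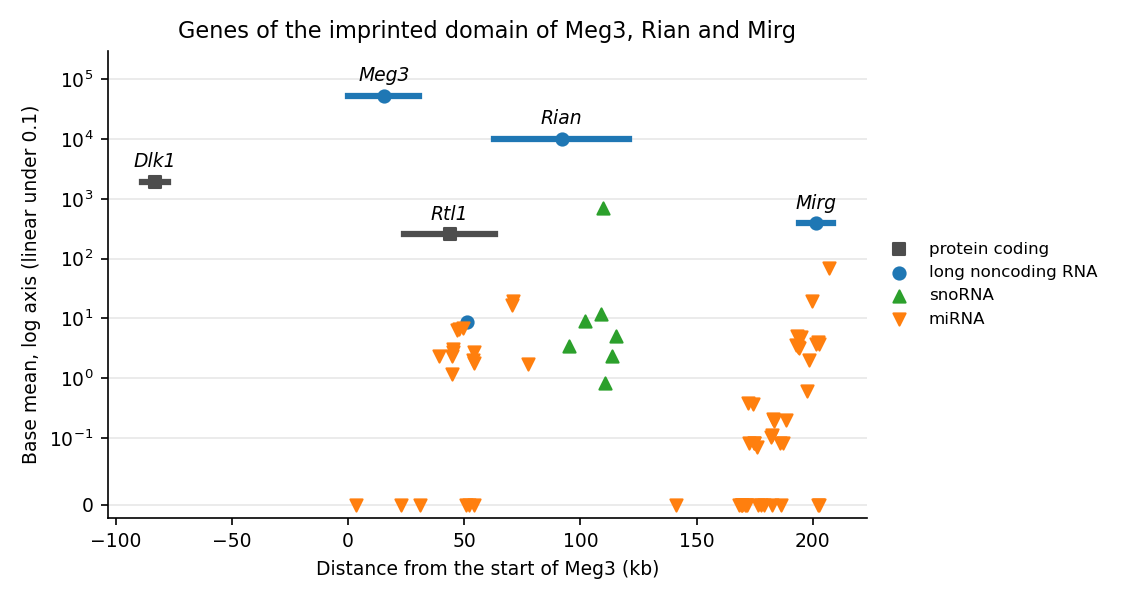
Base mean (log axis, linear under 0.1) of the listed genes against the distance of their midpoint from the start of *Meg3* in kilobases, with horizontal bars for the extent of the 5 named genes; *Begain*, *Dio3*, *Dio3os* and *3110009F21Rik* lie outside the window. The 3 members step down from *Meg3* to *Rian* and *Mirg*, while the long noncoding RNA gene *6430411K18Rik*, between *Meg3* and *Rian*, is at 8.69. The 26 microRNA genes between *Rian* and the GENCODE start of *Mirg* are at most at 0.383. That start lies upstream of the bar drawn from RefSeq.

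Small RNAs are cut from the introns of these transcripts, and mature microRNAs are too short to be kept in a library of this kind. Reads counted on a microRNA gene therefore come from longer RNA that covers it. Of the 60 microRNA genes listed in the domain, 15 lay between *Meg3* and *Rian*, with base means from 0 to 7.01 and 4 at 0. The 2 within *Meg3* were both listed at 0, and the 3 within *Rian* had 19.4 (*Mir1188*), 16.5 (*Mir341*) and 1.72 (*Mir370*).

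Within *Mirg* as RefSeq draws it, 8 of 10 microRNA genes had a base mean above 0. The GENCODE gene begins upstream at 109729764, and within that extent 12 of 14 were above 0 and 11 had at least 1, with a median of 3.66. Of the 26 between *Rian* and the GENCODE start of *Mirg*, 13 were listed at 0, and the highest had 0.383. The GENCODE edge, used here after the values had been seen, thus coincided with a step in the rows of the microRNA genes. These counts are small, they share the same libraries, and reads that overlap both a microRNA gene and its host may have been left uncounted, depending on the counting settings.

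The highest microRNA row in *Mirg* was *Mir3072* with 69.3, followed by *Mir377* with 19.4, and *Mir410* and *Mir412* were listed at 0. The sum over the 10 microRNA genes was 108, equal to 27.8% of the base mean of *Mirg*. Mature sequences of all 10 genes were found in the RefSeq table for GRCm38 (19 in all). They are shown for 6 of them, the pair at the top, 1 of the pair at 0, *Mir369* between them, and the pair that share a seed, with the seed (bases 2 to 8, which pair with targets) in capitals.
mmu-miR-3072-3p: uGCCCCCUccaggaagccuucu
mmu-miR-377-3p: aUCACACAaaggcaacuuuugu
mmu-miR-369-3p: aAUAAUACaugguugaucuuu
mmu-miR-410-3p: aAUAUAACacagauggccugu
mmu-miR-453: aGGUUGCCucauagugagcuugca
mmu-miR-496a-5p: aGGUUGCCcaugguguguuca
The seed GGUUGCC occurred in both miR-453 and miR-496a-5p, whose gene rows had base means of 4.90 and 2.05, and in no other mouse microRNA of the table. The seed of miR-410-3p, AUAUAAC, was also that of miR-344d-3p and miR-344e-3p, and each of the other 3 seeds shown was found in 1 mouse microRNA of the table. A gene row says nothing of the amount of its mature microRNA.

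*Rian* hosts snoRNAs, small RNAs that guide the modification of other RNAs. RefSeq places 11 snoRNA genes within it, of which 7 were listed, all above 0 and from 0.845 to 700. *AF357359* held most of this, with 700, while the other 6 had at most 11.9. The 7 rows summed to 733, equal to 7.28% of the base mean of *Rian*. RefSeq places *AF357359* from 109650709 to 109650738, an interval shorter than a read of 100 bases. Whether the reads of these rows came from the snoRNAs or from longer RNA that covers them was not tested.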

How the data were processed

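Poly(A)-selected RNA of the spinal cord of 5 WT and 5 *SOD1 G93A* mice was sequenced in stranded paired-end libraries with reads of 100 bases. Per the study's methods and notes, the authors removed reads with Fastp (quality under 30 or length under 30), aligned the rest to mm10 with HISAT2 2.1.0, counted uniquely mapped reads with featureCounts 2.0.2 and ran DESeq2. The annotation and strand setting of the counting are not given in the sources used here.

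The deposited signal values used are the base means, which the authors computed as the mean over all libraries of counts divided by size factors. The deposited table also holds the authors' own comparison of the genotypes (log2 fold change, standard error, Wald statistic, p-value and adjusted p-value), and these columns were not used. No values of single libraries were analysed here, so depth per sample, replicate error and tests between genotypes could not be given. Columns of samples outside the labels numbered 0. The groups were taken from the sample labels.

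Symbols were matched to GENCODE M21 on GRCm38 (24363 of 25232 genes, 96.6%). Base means were divided by the union of exon bases in kilobases. Classes of genes came from RefSeq GRCm38.p6, and its coordinates are printed for genes. Genes named are the 7 members, their nearest neighbours, the 10 highest long noncoding RNAs per kilobase, up to a few of each fixed list, and the small RNA genes within members. The latter, *6430411K18Rik*, *A230070E04Rik* and further genes of the lists were chosen after their values were seen. A few genes under the rule are not reported here. The members and lists were chosen with earlier results of these data known. Alternatives concerned the length, the genes ranked and the genes summed. Scripts were tested on simulated data and run in Python 3.11.15 with pandas 2.3.3, numpy 2.4.6 and matplotlib 3.10.9.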

Additional observations from a re-analysis of the deposited data

How the results depend on the processing

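The 7 long noncoding RNAs held 0.600% of the summed base mean, 0.607% when only genes matched to the annotation were summed and 0.360% without *Meg3*, the member with the highest base mean. In the top 5% of genes per kilobase were 3 of the 7, and 5 with the shortest transcript as length, 5 among noncoding genes alone and 5 on the base mean without a length. With the shortest transcript, 3 of the 7 kept their place in the order, and 3 did on the base mean without a length. *Mirg* was sixth and *Malat1* seventh with each length and without one. No paired analysis was possible because the values pool all libraries, and for the same reason no mouse could be left out and no depth per library was known.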
